A study of Melitaea cinxia with 174 samples.

Results

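The butterflies described here are 85 of the 174 Glanville fritillaries (*Melitaea cinxia*) whose thorax RNA was sequenced, chosen by their level of 1 gene, MCINXTMP_011439. The study calls this gene *Patched-related*, and its supplementary annotation describes it as Patched domain-containing protein 3. The study also lists it among the genes whose expression was associated with a single nucleotide polymorphism (SNP) close to the gene. For these SNPs it required the same direction in every population and a difference in allele frequency between fragmented and continuous landscapes. Genotypes were not used here. Of the 111 butterflies from ÅL, UP and ÖL, 33 formed the high class, with a log2(normalized count + 1) of 8 or more, and 52 formed the low class, with a value under 6. The 26 butterflies between these values formed a middle class and were left out of the comparison. The normalized count is the deposited count of a gene scaled for the size and composition of the library. The 63 butterflies from SA did not enter the rule, and the level of the gene was used there as a continuous value.

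Larvae of the 4 populations were collected in the wild, from fragmented landscapes (ÅL in the Åland Islands and UP in Uppland) and from continuous landscapes (ÖL on Öland and SA on Saaremaa). They overwintered at 5°C within populations and were reared singly in a common garden, with 12 h of light and 12 h of dark and 28°C by day and 15°C by night. The adults were held for 3 days before the thorax was frozen, and no treatment was applied. Each butterfly gave 1 library and is 1 replicate, and the classes differ in nothing that was assigned to the butterflies.

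Patched is the membrane receptor of the Hedgehog ligand. In the absence of the ligand it holds back Smoothened, and once the ligand binds, Smoothened signals to the transcription factor Ci, which switches target genes on. Patched-related proteins belong to the same family of membrane proteins with a sterol-sensing domain, and their own ligands and targets are less well known. The thorax of an adult butterfly is mostly flight muscle, with cuticle, fat body and hemolymph.

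The classes were unequal in size between populations. In ÅL there were 11 high, 14 middle and 24 low butterflies of 49, or 22.4% high. In UP there was 1 high butterfly, the male numbered 5, beside 6 middle and 13 low butterflies of 20. In ÖL there were 21 high, 6 middle and 15 low butterflies of 42, and 50% were high. In SA 51 of 63 butterflies would have been high and 3 low. Both sexes were present in both classes of ÅL, with 3 females and 8 males high and 12 females and 12 males low, and of ÖL, with 8 females and 13 males high and 4 females and 11 males low.

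**Figure D1:**
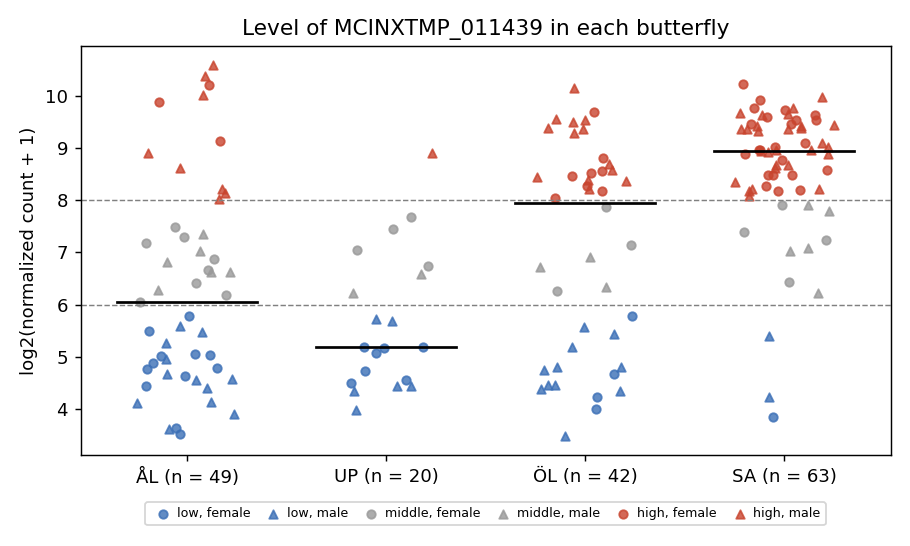
Level of MCINXTMP_011439, as log2(normalized count + 1), in each of the 174 butterflies by population, with circles for females, triangles for males, colours for the classes, dashed lines at 6 and 8 and a black bar at the median of the population. The levels spread over both thresholds in ÅL and ÖL, UP has 1 butterfly above 8, and 51 of the 63 butterflies of SA lie above 8.

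The level of MCINXTMP_011439 chose the butterflies and is given without a test. In ÅL it was 3.52 at the lowest, 4.72 at the median and 5.77 at the highest in the low class, and 8.02, 9.12 and 10.60 in the high class. In ÖL the same 3 values were 3.47, 4.68 and 5.78 in the low class and 8.04, 8.58 and 10.15 in the high class. In UP the low class ran from 3.97 over 4.72 to 5.72, and the single high butterfly was at 8.90. The low classes of the 3 populations therefore lay at almost the same level. In reads, the low class of ÖL held 15 to 184 reads of the gene, with a median of 63, and the high class 249 to 3942, with a median of 1257. In ÅL the low class held 8 to 180 reads and the high class 277 to 5119, so that the gene was well counted in every high butterfly.

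Few butterflies lay close to a threshold. The highest low values were 5.72 in UP, 5.77 in ÅL and 5.78 in ÖL, and the lowest middle values were 6.05 and 6.18 in ÅL. The highest middle value was 7.87 in ÖL, and the lowest high values were 8.02 in ÅL and 8.04 in ÖL. When the level was taken from counts scaled to the total count alone, 4 of the 111 butterflies moved between a class and the middle class, and 0 moved between high and low.

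The libraries of the high butterflies of ÅL stood apart from the others in their composition. The TMM factor, which edgeR sets below 1 where a few genes take a large part of the reads, was 0.402 at the lowest, 0.625 at the median and 1.21 at the highest in the high class of ÅL, against 0.488, 1.06 and 1.47 in its low class. In ÖL it was 0.780, 1.15 and 1.52 in the high class and 0.849, 1.04 and 1.24 in the low class. In 13 ÅL butterflies, 9 of the 11 high ones and 4 of the 24 low ones, it was below the lowest value of UP and ÖL. The 10 most abundant genes took a median of 32.4% of the counts in the high class of ÅL and 27.2% in its low class, against 26.3% and 25.3% in ÖL. A median of 9148 genes had a read in the high class of ÅL and 10485 in its low class, against 11164 and 11061 in ÖL. Total counts did not follow this pattern, with medians of 2493230 and 2720760 in the high and low classes of ÅL and 2869890 and 2950390 in those of ÖL.

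**Figure D2:**
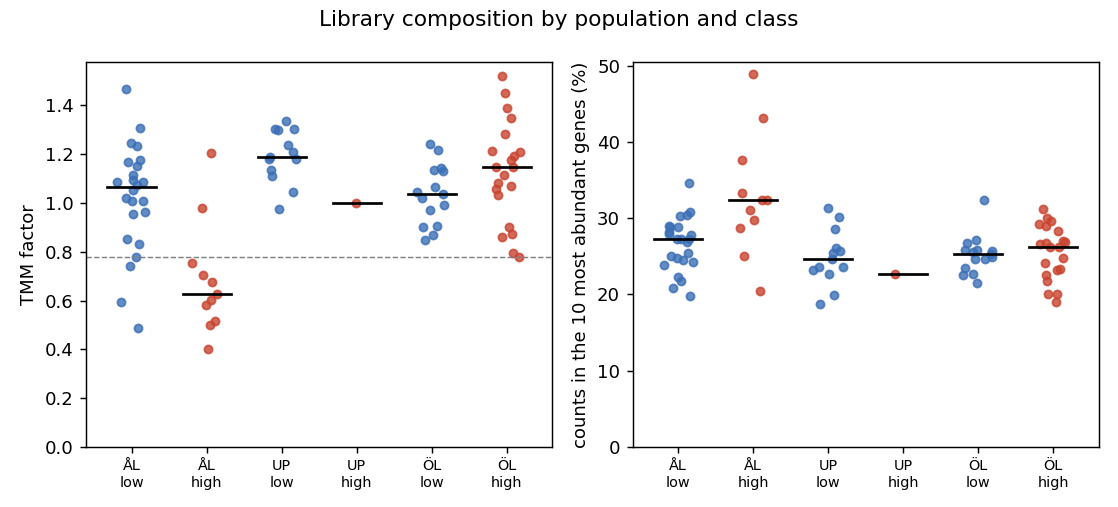
TMM factor (left) and percent of counts in the 10 most abundant genes (right) of each of the 85 butterflies, by population and class, with a black bar at the median and a dashed line at the lowest TMM factor of UP and ÖL, 0.780. Of the 11 high butterflies of ÅL, 9 lie under the dashed line, while the classes of ÖL cover much the same range.

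A further check concerned sex. In mean distance over the 20 genes with the largest difference between females and males, 3 males were nearer to the females. These were ÅL replicate 28 and ÖL replicate 15 of the high class and UP replicate 9 of the low class. Of the 20 genes, 16 were nearer to the females in ÅL replicate 28 and 18 in ÖL replicate 15, but only 8 in UP replicate 9. By this count the label of UP replicate 9 is less clearly in doubt than those of the other males. In MCINXTMP_012856, a gene that separated the sexes, UP replicate 9 nevertheless had a normalized count of 195. The low females of UP ran from 104 to 1001 in that gene, and the next low male of UP was at 11.4. The 3 males kept their labels. The pooled count, the counts within ÅL and ÖL and the difference in MCINXTMP_012856 are also given without them. The study itself set aside a few butterflies of ÖL and UP after genetic clustering, some because their population labels seemed exchanged. Those butterflies were not identified here and kept their labels, so the population term may be wrong for them, and whether the single high butterfly of UP is one of them was not tested.

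The first comparison asked which genes differed between butterflies with a high and a low level of MCINXTMP_011439 once population and sex were accounted for. Raw counts were tested with edgeR's quasi-likelihood F-test, and FDR is the p-value adjusted over all genes tested. Of 6562 genes, 95 were called at FDR<0.05, or 1.45%, with 50 higher (0.762%) and 45 lower (0.686%) in the high class. At an unadjusted p under 0.05 there were 1301 genes. The median log2 difference over all genes was -0.014, and the median size of the difference among the called genes was 0.69. The values of the classes overlapped in every tested gene, in the 3 populations together and in ÅL and ÖL alone.

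This count changed when library composition entered the model and when the libraries that stood apart were left out. When the log2 TMM factor was added as a covariate 2 genes were called (0.0305%), 1 in each direction (0.0152%). Without the 13 ÅL butterflies 2 genes were called (0.0292%), both lower in the high class (0.0292%). These 13 include 9 of the 11 high butterflies of ÅL, so class and library composition could not be fully told apart there. Without ÅL altogether 1 gene was called. When the count share of the top 10 genes was added instead there were also 2. Without the 3 males nearer to the females there were 35 (0.531%), and without ÅL replicate 28 alone there were 44.

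**Figure D3:**
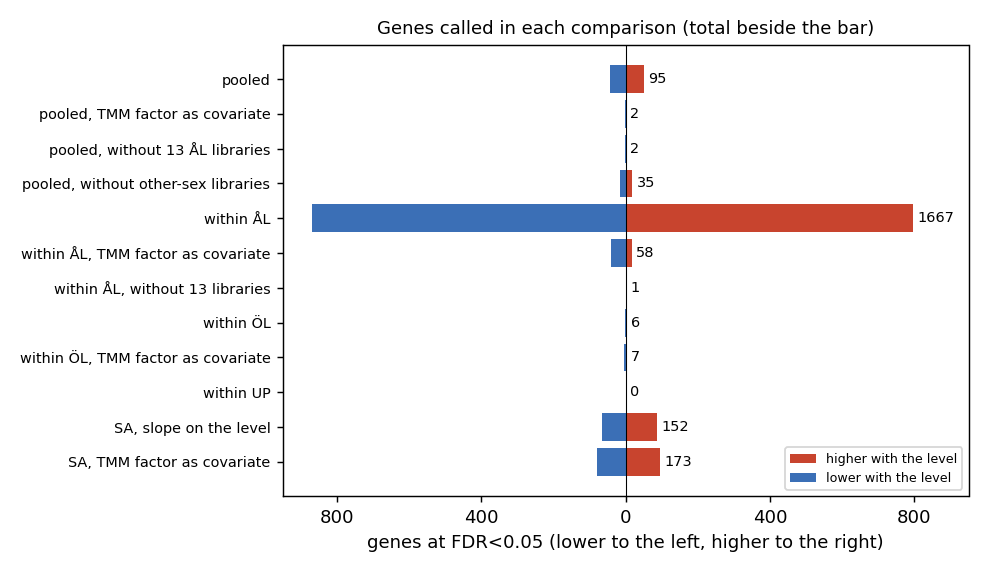
Number of genes at FDR<0.05 in each comparison, with genes higher with the level of MCINXTMP_011439 to the right and lower genes to the left, and the total beside each bar. The 1667 genes called within ÅL fall to 58 once the log2 TMM factor is added to the model and to 1 without the 13 ÅL libraries of low TMM factor, whereas the 6 genes of ÖL and the 152 of SA become 7 and 173 with the covariate.

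Among genes with the same sign in the 3 populations, the 12 largest rises ran from 0.71 to 1.17 on the log2 scale, and the 12 largest falls ran from -0.68 to -1.66. Of the 12 rises, 11 were called within ÅL and 0 within ÖL. Of the 12 falls, 8 were called within ÅL and 1, MCINXTMP_014170, within ÖL. Over all genes tested, 25.4% were called within ÅL and 0.0914% within ÖL. The genes were picked from the pooled calls, and the same butterflies enter both fits, so these counts are not a separate result. Most of these genes carry no name in the sources used here.

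The rises were led by MCINXTMP_010502, a gene without a name. Its normalized count in ÅL was 0.387 at the lowest, 2.75 at the median and 6.83 at the highest in the low class, and 2.05, 4.74 and 26.02 in the high class. In ÖL the same values were 0, 2.84 and 7.50 in the low class and 0.387, 3.83 and 19.7 in the high class. The classes overlapped widely in both populations, and the fitted difference was 1.17 ± 0.25 (SE) on the log2 scale, with an adjusted p of 0.0079. Among the falls, MCINXTMP_014287 had the largest difference, at -1.66 ± 0.46 and an adjusted p of 0.040, followed by MCINXTMP_014170, described further on.

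The supplementary annotation names only genes that the study listed, many of them chosen on these same samples. Of the 95 called genes, 11 had a name in it, and these 11 were chosen for description after their values were seen. One of the higher ones was MCINXTMP_008221, Troponin C, the calcium sensor of the thin filament of muscle. Its normalized count in ÅL was 160 at the lowest, 343 at the median and 1381 at the highest in the low class, and 279, 760 and 2465 in the high class. In ÖL the values were 192, 250 and 487 in the low class and 138, 292 and 490 in the high class. The classes overlapped in both populations, and values above the range of ÖL occurred in both classes of ÅL. The pooled log2 difference was 0.61 ± 0.16 with an adjusted p of 0.037, against 1.20 ± 0.23 within ÅL and 0.15 ± 0.22 within ÖL.

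The same pattern held for MCINXTMP_007504, ribosomal protein S5 of the small ribosomal subunit, which differed by 0.61 ± 0.17 in the pooled fit, 1.29 within ÅL and 0.05 within ÖL. MCINXTMP_014256, Sec13, a protein of the coat of transport vesicles and of the nuclear pore, differed by 0.46 ± 0.12, with 0.89 within ÅL and 0.11 within ÖL. MCINXTMP_006833, described as 50S ribosomal protein L20 and one of the genes that held a marker SNP of the study, differed by 0.49 ± 0.14. MCINXTMP_010238, named after the JNK1/MAPK8-associated membrane protein, a protein of the endoplasmic reticulum membrane, differed by 0.79 ± 0.19. For these genes the adjusted p was 0.037, 0.031, 0.039 and 0.018 in that order. MCINXTMP_008548 (RE35250p) and MCINXTMP_014332 (a hypothetical protein) were also higher, by 0.51 and 0.43.

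The 4 lower genes with a name were MCINXTMP_010586, MCINXTMP_011623, MCINXTMP_008451 and MCINXTMP_007475. MCINXTMP_010586, described as a cleft lip and palate transmembrane protein, was lower by -1.91 ± 0.50 in the high class, with an adjusted p of 0.031. Its normalized count in ÅL was 0.340 at the lowest, 28.3 at the median and 165 at the highest in the low class, and 0, 1.89 and 33.8 in the high class. In ÖL the medians were 6.19 and 4.75, and the highest values 518 and 53.2. MCINXTMP_011623, a putative hydroxypyruvate isomerase, was lower by -1.15 ± 0.31, with medians of 13.5 in the low and 5.08 in the high class of ÅL and of 4.77 and 4.65 in ÖL. MCINXTMP_008451, F-box only protein 28, of a family that brings substrates to ubiquitin ligases, was lower by -1.02 ± 0.27, and its median in ÖL was 15.8 in the low and 6.25 in the high class. MCINXTMP_007475, the ubiquitin ligase ariadne-2, was lower by -0.52 ± 0.13, with medians of 20.7 and 9.78 in ÅL and of 25.2 and 20.3 in ÖL. None of these 11 genes was called with the log2 TMM factor as a covariate.

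The gene with the smallest p in the pooled comparison was MCINXTMP_014170, which has no name. Its normalized count in ÖL was 1.35 at the lowest, 6.78 at the median and 117 at the highest in the low class, and 0, 3.87 and 8.51 in the high class. In ÅL the values were 1.34, 5.68 and 12.3 in the low class and 0, 2.23 and 6.005 in the high class. In UP the low class ran from 2.44 over 5.85 to 9.29, and the high butterfly was at 4.50. The gene was thus lower at the median in the high class of each population, with overlapping ranges, and was read at few counts, with a median of 18 reads in the low and 10 in the high class of ÖL. The pooled log2 difference was -1.65 ± 0.28 with an adjusted p of 0.00061, and it was -2.20 ± 0.37 within ÖL (adjusted p = 0.00032) and -0.97 ± 0.47 within ÅL (adjusted p = 0.12).

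The size of this difference in MCINXTMP_014170 came with 3 low butterflies of ÖL. Replicates 27, 6 and 12 had normalized counts of 117, 47.4 and 43.6, and the next of the low class was at 11.7. Without these 3 butterflies the pooled difference was -0.77 with an adjusted p of 0.0495, and the difference within ÖL was -0.68 ± 0.32 with an adjusted p of 0.9999. The call held when the log2 TMM factor was added (-1.72, adjusted p = 0.00046) and without the 13 ÅL butterflies (-1.93, adjusted p = 0.00018).

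MCINXTMP_012856 had the largest difference among the 7 genes with an adjusted p under 0.01 in the pooled comparison and was the other gene called with the log2 TMM factor as a covariate. It was chosen after its values were seen. Its pooled difference was 2.67 ± 0.52 with an adjusted p of 0.0059. The gene separated the sexes. In ÅL its normalized count was 210 to 1432 in the 12 low females and 625 to 1252 in the 3 high females, against 1.06 to 23.7 in the 12 low males. Of the 8 high males of ÅL, 7 lay between 3.21 and 10.01, and ÅL replicate 28 was at 1200. In ÖL, 12 of the 13 high males lay between 0 and 10.6 and ÖL replicate 15 was at 557. Without the 3 males nearer to the females the difference was 0.52 with an adjusted p of 0.24, and without ÅL replicate 28 alone it was 1.55 with an adjusted p of 0.12.

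**Figure D4:**
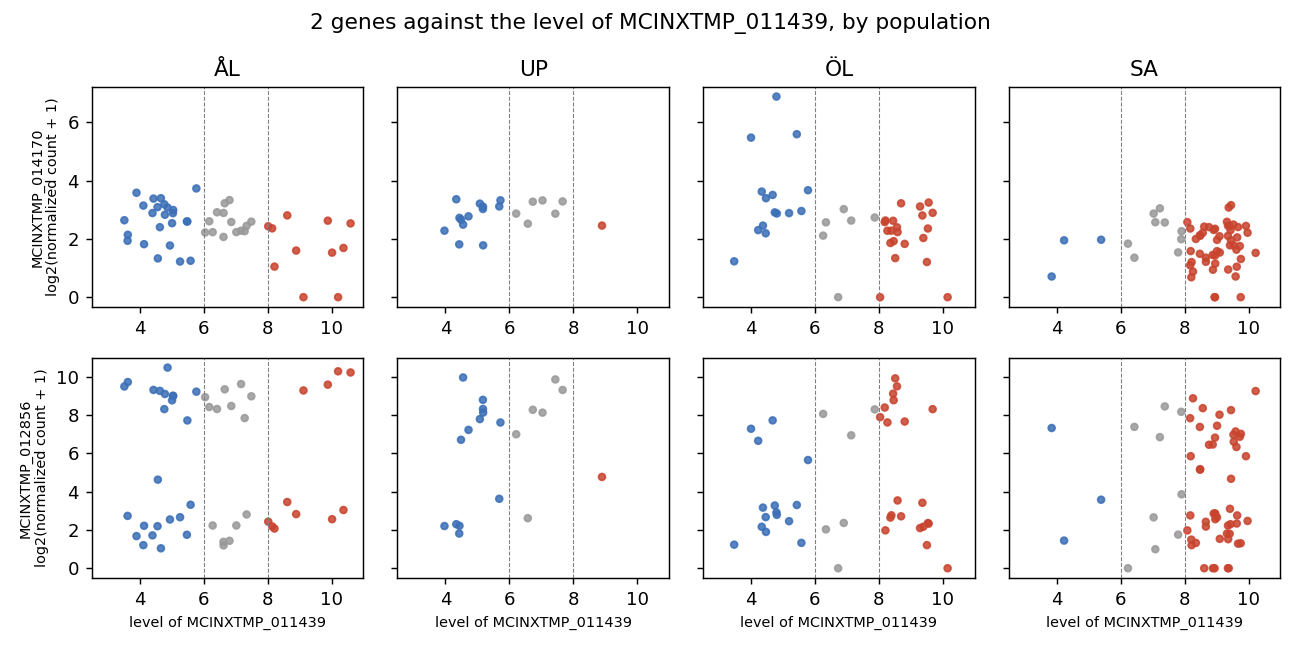
log2(normalized count + 1) of MCINXTMP_014170 (upper row) and MCINXTMP_012856 (lower row) against the level of MCINXTMP_011439 in each butterfly of the 4 populations, coloured by class, with dashed lines at 6 and 8. In the upper row 3 low butterflies of ÖL stand above all others, and in the lower row the butterflies of ÅL and ÖL fall into an upper and a lower band.

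The second comparison asked whether the difference was the same in each population. From 1 fit with a mean for each population and class, and sex as a covariate, 1667 of 6562 genes were called within ÅL (25.4%), with 796 higher and 871 lower in the high class. Fitted alone, ÅL gave 845 genes, 507 higher (8.23%) and 338 lower (5.49%). Within ÖL, where the high class held 21 butterflies against 11 in ÅL, 6 genes were called (0.0914%), with 3 in each direction (0.0457% each), and a fit of ÖL alone called 3, all lower (0.0474%). In the joint fit 252 genes had an unadjusted p under 0.05 within ÖL. Within UP, with its 1 high butterfly, 0 genes were called by edgeR's quasi-likelihood test and 177 had an unadjusted p under 0.05, while a fit of UP alone called 14. The median SE of the log2 difference was 0.28 in ÅL and 0.25 in ÖL, and the median size of the difference was 0.41 and 0.15.

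The difference between populations was itself tested. With the 3 populations together, 324 genes (4.94%) had a class difference that depended on population, and 720 genes (11%) differed more or less in ÅL than in ÖL, 351 and 369 by direction. Over the genes called within ÅL, 737 of 1667, or 44.2%, had the same sign in ÖL, against 46.8% of all genes tested. These contrasts hold no butterfly in common. When the log2 TMM factor was added, 58 genes were called within ÅL (0.884%) and 7 within ÖL (0.107%), of which 3 were higher (0.0457%), and 1 gene depended on population. Without the 13 ÅL butterflies of low TMM factor 1 gene was called within ÅL and 1 within UP (0.0146% each, both higher), and 2 high butterflies of ÅL then remained. In ÅL the class and the composition of the library could not be fully told apart.

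**Figure D5:**
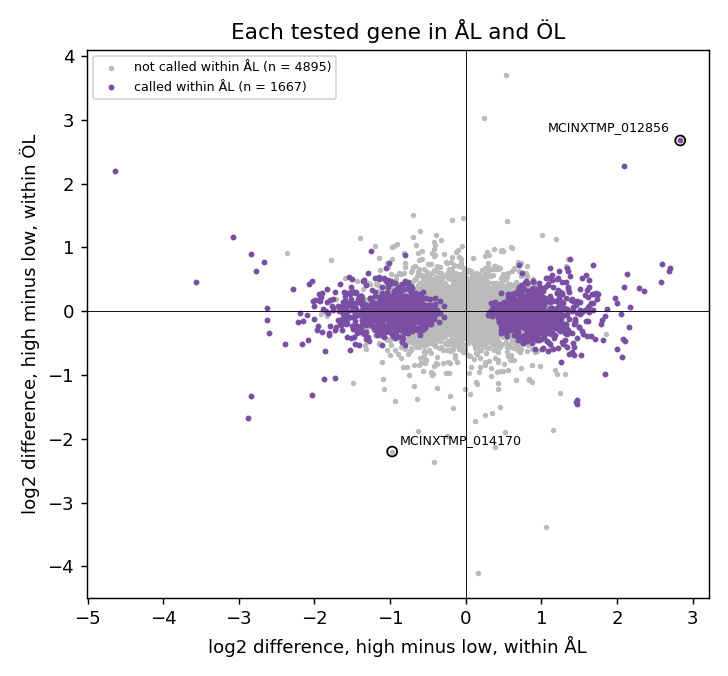
log2 difference between the high and the low class within ÖL against that within ÅL for each of the 6562 genes, with the 1667 genes called within ÅL in purple, and MCINXTMP_014170 and MCINXTMP_012856 ringed. The purple genes spread widely along the ÅL axis and lie around 0 on the ÖL axis, with 44.2% of them at the same sign in both.

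The genes with the smallest p within ÅL showed the contrast with ÖL. MCINXTMP_014585, which has no name, had a normalized count in ÅL of 1.06 at the lowest, 4.78 at the median and 31.4 at the highest in the low class and of 4.28, 25.4 and 62.6 in the high class. In ÖL the values were 0.945, 7.15 and 12.3 in the low class and 2.90, 6.57 and 11.6 in the high class. Its log2 difference was 2.05 within ÅL and -0.04 within ÖL, and the difference between them had an adjusted p of 0.0011. MCINXTMP_006522 fell in the high class of ÅL, by -1.36, and was at -0.02 in ÖL. MCINXTMP_016615 rose by 1.19 in ÅL and was at -0.08 in ÖL.

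The 6 genes of ÖL, which carry no name, were each carried by part of the butterflies. MCINXTMP_012316 had a normalized count of 0 at the lowest, 2.997 at the median and 14.4 at the highest in the low class and of 2.25, 8.95 and 316 in the high class, and 5 of the 21 high butterflies lay above all low ones. Its log2 difference was 3.03 with an adjusted p of 0.0022. MCINXTMP_003657 had a median of 7.40 in the low and 5.31 in the high class, so that the median went against its fitted difference of 3.71, and 5 high butterflies lay above all low ones, up to 857. MCINXTMP_013444 was the most even of the 6, with 12 of 21 high butterflies above the highest low value of 8.58, and a difference of 1.42 with an adjusted p of 0.037. On the lower side, 5 of 15 low butterflies lay above all high ones in MCINXTMP_004937, 4 in MCINXTMP_013489 and 7 in MCINXTMP_014170. Within ÅL the log2 differences of MCINXTMP_012316, MCINXTMP_003657 and MCINXTMP_013444 were 0.24, 0.53 and -0.18, and those of MCINXTMP_004937 and MCINXTMP_013489 were 0.39 and -0.25.

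Another comparison asked whether the difference depended on sex. No gene was called (0 of 6562 by edgeR's quasi-likelihood test), with 582 at an unadjusted p under 0.05. No other tool was run on it. In separate fits 22 genes were called in females and 1 in males. The fit of males included the 3 males that were nearer to the females.

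SA supplied butterflies that the rule did not use. Over its 63 butterflies, with sex as a covariate, 152 of 4496 genes (3.38%) changed with the level of MCINXTMP_011439, with 86 rising and 66 falling. With the log2 TMM factor as a covariate there were 173. The median TMM factor was 1.01 in the 51 butterflies of SA that were high, 0.990 in the 9 in the middle and 0.922 in the 3 that were low. Without the 3 low butterflies, 519 of 4680 genes were called. Of the 95 genes called in the pooled comparison 69 were tested in SA, and 1 of them was called there with the same sign and 0 with the opposite sign. Of the 69, 43 had the same sign (62.3%), against 51.2% of the 4485 genes tested in both.

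The gene with the smallest p in SA was MCINXTMP_006862, without a name. Its normalized count was 38.8, 70.9 and 622 in the 3 low butterflies. In the middle class it was 1.98 at the lowest, 47.7 at the median and 452 at the highest, and in the high class 0.499, 14.4 and 243. It fell by 0.83 ± 0.11 on the log2 scale for each unit of the level (adjusted p = 1.4e-06). In ÅL the medians of the low and high classes were 23.9 and 84.8, and in ÖL they were 13.2 and 12.2, and the fitted difference within ÅL was 1.51 ± 0.35, the opposite direction (adjusted p = 0.0011). MCINXTMP_011347, with a slope of 0.47 ± 0.09, rose in SA, and MCINXTMP_004041, with a slope of -0.38 ± 0.07, fell (adjusted p = 0.0045 for both). These 3 genes were chosen after their values were seen. MCINXTMP_014170 and MCINXTMP_012856 did not pass the filter in SA, which in a fit on a continuous level asks for reads in more butterflies. The median normalized count of MCINXTMP_014170 there was 2.87 in the low, 3.81 in the middle and 2.44 in the high class.

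The genes that the study lists for the Hedgehog pathway were examined as a fixed list. The study found them by sequence similarity to *Drosophila* genes of the pathway. Many members are described as other protein kinases, such as PLK4 (MCINXTMP_003116) and Aurora kinase C (MCINXTMP_011624), so counts over the list are not a measure of Hedgehog signalling. Of the 95 genes that the study lists for the pathway 46 passed the filter, and 0 were called in the pooled comparison, against 1.45% of all genes, with a median log2 difference of -0.096. Within ÅL 7 were higher and 11 lower, or 39.1%, against 25.4% of all genes, with a median of -0.23 against -0.061. Within ÖL and in SA 0 were called, with medians of -0.055 and 0.0052. With the log2 TMM factor as a covariate 1 was called within ÅL.

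Of the 6 core genes 3 passed the filter. MCINXTMP_007389, the ligand *hedgehog*, had a median normalized count of 4.44 in the low and 3.02 in the high class of ÅL and of 1.66 and 1.79 in ÖL, and its pooled log2 difference was -0.13 ± 0.27 (adjusted p = 0.82). MCINXTMP_001485, the transcription factor *ci*, had medians of 5.76 and 3.55 in ÅL and of 5.46 and 7.42 in ÖL, with a pooled difference of -0.06 ± 0.18 (adjusted p = 0.88). MCINXTMP_000111, which the study's pathway list assigns to *smoothened* but the annotation describes as a polyadenylation factor, differed by -0.31 ± 0.12 (adjusted p = 0.13). It was lower within ÅL, by -0.64 ± 0.18 (adjusted p = 0.0071), with medians of 31.9 and 20.1.

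MCINXTMP_007513, the putative receptor *patched*, had few reads. Its normalized count was 0 in 14 of the 24 low and 3 of the 11 high butterflies of ÅL and in 4 of the 15 low and 10 of the 21 high butterflies of ÖL, with a highest value of 7.93. MCINXTMP_008487, *smoothened*, and MCINXTMP_006136, *Rab23*, a small GTPase that dampens the pathway in mammals, did not pass the filter either. Without a filter their differences were 0.18 ± 0.40 and -0.39 ± 0.51, and that of *patched* was 0.22 ± 0.46, with adjusted p of 0.88, 0.77 and 0.87.

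Other members of the pathway list moved within ÅL only in part. MCINXTMP_002468, described as the kinesin heavy chain KIF5B, was higher by 1.61 ± 0.36, and MCINXTMP_002031, ribosomal protein S6 kinase beta-1, by 0.75 ± 0.16. MCINXTMP_006363, the kinase prp4, was lower by -1.19 ± 0.22. In ÖL the same 3 genes were at 0.23, -0.05 and -0.05.

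The Wnt and Notch pathways, which like Hedgehog carry signals between cells in development, were examined in the same way. Of 57 Wnt genes tested 0 were called in the pooled comparison, and within ÅL 9 were higher and 11 lower (35.1%, against 25.4% of all genes), and 1 was called when the log2 TMM factor was added. Many of the Wnt genes called within ÅL are also on the Hedgehog list, among them MCINXTMP_002031, MCINXTMP_003116 and MCINXTMP_014722. The shares of the Wnt and Hedgehog lists are therefore not separate results. Of 18 Notch genes 0 were called in the pooled comparison, and within ÅL 3 were higher and 2 lower, a share of 27.8% close to the 25.4% of all genes, and 1 was called when the log2 TMM factor was added. MCINXTMP_016171, *nejire*, a transcriptional coactivator on the Wnt and Notch lists, was at 1.60 ± 0.38 within ÅL and -0.39 ± 0.38 within ÖL. MCINXTMP_003518, the corepressor Groucho, was at 1.04 ± 0.25 and 0.10 ± 0.23.

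The 5 identifiers on each side of MCINXTMP_011439 were examined because neighbouring numbers may be neighbouring gene models, although their positions were not used here. Of the 10, 4 passed the filter and 0 were called in the pooled comparison. MCINXTMP_011440 was at 0.23 ± 0.16. Within ÅL, MCINXTMP_011437 and MCINXTMP_011443 were higher by 1.19 ± 0.30 and 0.93 ± 0.26, while in ÖL they were at -0.21 and -0.22. These 2 of 4 stand against 25.4% of all genes called within ÅL, and when the log2 TMM factor was added 0 were called and the median of the 4 went from 0.62 to 0.21.

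Markers of muscle, cuticle and fat body gave 0 calls within ÖL, where only 0.0914% of all genes were called, so that the count says nothing particular about them. The 4 hexamerins, storage proteins of fat body and hemolymph, did not pass the filter. Over the 85 butterflies, the median normalized count of one of them, MCINXTMP_010010, was 0.966 in the low and 0.563 in the high class, with highest values of 1145 and 227. Of the 4 muscle genes 1 (25%), Troponin C (MCINXTMP_008221), was called in the pooled comparison, against 1.45% of all genes. Within ÅL 2 were higher and 1 lower (75%, against 25.4% of all genes), with 0 called when the log2 TMM factor was added. The other higher gene was MCINXTMP_015570, a further Troponin C model, at 0.62 ± 0.21 within ÅL and -0.12 ± 0.20 in ÖL. MCINXTMP_001483, Disorganized muscle protein 1, was lower within ÅL by -1.63 ± 0.33 and was at -0.10 ± 0.28 in ÖL. The remaining muscle gene, MCINXTMP_012804, Myosin II heavy chain, was not called. It was at -0.64 ± 0.27 within ÅL and 0.03 ± 0.24 in ÖL. Of 11 tested cuticle proteins 0 were called in the pooled comparison, and within ÅL 5 were higher and 0 lower (45.5%), with a median of 0.83, against 25.4% of all genes called, 12.1% of all genes higher, and a median of -0.061. MCINXTMP_012882, the cuticular protein CPR99, was at 1.53 ± 0.37 in ÅL and -0.01 ± 0.39 in ÖL. With the log2 TMM factor as a covariate 0 cuticle proteins were called within ÅL. Fewer cells of a type and less RNA per cell cannot be told apart in these bulk samples. Their part in the results was not tested.

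Of the 8 antimicrobial peptides of the immune response 5 passed the filter, and 0 were called in the pooled comparison, against 1.45% of all genes. Within ÅL 0 of these peptides were higher and 2 lower (40%, against 25.4% of all genes), and 1 was called when the log2 TMM factor was added. Their levels varied very widely within each class. MCINXTMP_009396, Gloverin 1, had a normalized count in ÅL of 0 at the lowest, 2.45 at the median and 2325 at the highest in the low class and of 0, 2.77 and 13.8 in the high class. In ÖL the values were 0, 1.89 and 7.53 in the low class and 0, 2.81 and 103 in the high class. The medians were thus alike, and the highest butterflies set the fitted differences of -4.64 within ÅL (adjusted p = 0.0024) and 2.20 within ÖL (adjusted p = 0.9998). MCINXTMP_012360, a merged model of Cecropins 4 and 5, was lower within ÅL by -3.56, with medians of 4.60 and 1.02 and highest values of 2336 and 124. Defensin-5 (MCINXTMP_000474), Defensin-1 (MCINXTMP_014016) and Cecropin 3 (MCINXTMP_012359) were at -0.68, -0.31 and 0.40 in the pooled comparison and were not called within ÅL.

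The other lists gave 1 call in the pooled comparison, MCINXTMP_006833 among 52 tested genes with a marker SNP. The flight genes are those that the study reports as changed after a flight treatment in a separate experiment, and they include the antimicrobial peptides. Of 33 flight genes 0 were called, and within ÅL 1 was higher and 6 lower (21.2%, against 25.4% of all genes), with a median of -0.43, and 1 was called when the log2 TMM factor was added. The lower ones included MCINXTMP_009396 and MCINXTMP_012360, already described as antimicrobial peptides. Of 12 mitochondrial ribosomal proteins 3 were higher and 1 lower within ÅL, of 10 detoxification genes 3 higher and 1 lower, of 8 genes of the mitochondrial respiratory chain 0 higher and 2 lower, and of 10 lipases and fatty acid genes 0 higher and 2 lower. Of 4 tested microtubule and axoneme genes 0 were higher and 3 lower, of 6 ecdysteroid and juvenile hormone genes 2 higher and 0 lower, and of 7 other immune genes 1 higher and 0 lower. These shares ran from 14.3% to 75% of short lists, around the 25.4% of all genes, and when the log2 TMM factor was added 1 mitochondrial ribosomal protein and 0 genes of the other lists of this group were called within ÅL. In ÖL, where 0.0914% of all genes were called, 0 genes of any of these lists were. In SA, where 3.38% of all genes were called, 2 of 26 flight genes rose, and 1 of 4 microtubule genes and 1 of 30 genes with a marker SNP fell. The muscle, cuticle, hexamerin, mitochondrial, metabolic, hormone and marker SNP lists were drawn from genes that the study chose on these same samples. The other immune and the microtubule lists also rest on names from the study's supplementary annotation and share this limit. Their counts are therefore not independent of that choice.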

How the data were processed

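The samples were 174 thorax libraries, 1 per butterfly. After base calling with CASAVA 1.7, the authors cleaned the reads, aligned them by TopHat2 2.0.5 (versions per the submitters' notes) and counted them in 16667 gene models. The deposited raw counts carry no normalization. Normalized counts form a second deposited signal table in which the authors scaled the raw counts of each butterfly by library size and TMM factor. The labels gave population and sex, and the few butterflies of ÖL and UP that the study removed after genetic clustering were not identified here and stayed in. Total counts, the depth, ranged from 442717 to 7742394 in all butterflies and from 630555 to 7742394 in the 85 compared. P-values measure the spread between butterflies.

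Classes were set on log2(normalized count + 1) of MCINXTMP_011439, which was left out of the tests. Raw counts were tested in R 4.3.3 with edgeR 4.0.16, with TMM normalization and filterByExpr at a minimum count of 10. The size of the smaller class set how many butterflies, of either class, had to pass this filter. The quasi-likelihood F-test had population and sex as covariates, and Benjamini-Hochberg adjustment was used with FDR<0.05 as the threshold. Fold changes are fitted log2 differences with SE, high minus low, and normalized counts in the text are the deposited values. Within populations, 1 fit held a mean for each population and class. SA was fitted on the level. Sex was checked on the 20 genes with the largest sex difference and an average log2 CPM above 3. Alternatives were RLE size factors, no filter, at least 10 counts in every butterfly, DESeq2 1.42.0, the likelihood ratio test, limma-voom (limma 3.58.1), total count or the count share of the top 10 genes as a covariate, no sex term, a division at 7, the continuous level, each sex, each population left out, a total count of at least 1000000 and FDR<0.01. The log2 TMM factor as a covariate, the classes from total-scaled counts and the omission of other single or grouped butterflies were chosen after seeing the data. The tests were checked on simulated counts with known changes.

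Named genes were the 12 with the largest difference in each direction among called genes with an average log2 CPM above 1 and the same sign in ÅL, UP and ÖL, the 5 identifiers on each side of MCINXTMP_011439, the Hedgehog core genes, hexamerins and antimicrobial peptides, and up to 3 called genes of each other list. Other genes named were chosen after their values were seen. The members and lists were chosen with earlier results of these data known. Gene names came from the study's supplementary annotation, since the gene models were not matched to the reference table here, and neither sequences nor positions were used. Figures were drawn with matplotlib 3.10.9 in Python 3.11.15.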

Additional observations from a re-analysis of the deposited data

Results flagged for a closer look

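The class difference depended on population in 324 genes by the test over ÅL, UP and ÖL, and in 720 genes by the test of ÅL against ÖL.

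Among named genes whose log2 difference was larger in ÅL than in ÖL, the excess was 1.87 in MCINXTMP_000278, 2.04 in MCINXTMP_000746, 1.43 in MCINXTMP_003002, 1.24 in MCINXTMP_007504, 1.05 in MCINXTMP_008221, 0.65 in MCINXTMP_008548 and 2.02 in MCINXTMP_009969. It was 1.36 in MCINXTMP_011428, 1.39 in MCINXTMP_011437, 1.14 in MCINXTMP_011443, 0.77 in MCINXTMP_014256, 0.89 in MCINXTMP_014332, 2.08 in MCINXTMP_014585 and 1.27 in MCINXTMP_016615. In MCINXTMP_004937 and MCINXTMP_015562, where the value in ÖL was negative, it was 2.52 and 4.44.

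Genes with a smaller or more negative difference in ÅL were MCINXTMP_003657 (-3.17), MCINXTMP_005587 (-1.20), MCINXTMP_006522 (-1.34), MCINXTMP_009396 (-6.83), MCINXTMP_010443 (-1.16), MCINXTMP_012214 (-1.57), MCINXTMP_012316 (-2.79), MCINXTMP_012360 (-4.01) and MCINXTMP_013444 (-1.61). Each of these differences passed the adjusted threshold of edgeR's quasi-likelihood test.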

How the results depend on the processing

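The 95 genes called became 144 with RLE, 230 without a filter, 312 with DESeq2, 267 with the likelihood ratio test, 60 with limma-voom, 143 with total count as a covariate, 2 when either the count share of the top 10 genes or the log2 TMM factor was added, 44 with a division at 7, 481 on the continuous level (1 with the log2 TMM factor), 22 in females, 1 in males, 1 without ÅL, 996 without ÖL, 7 at FDR<0.01, 26 with total-scaled classes, 2 without the 13 ÅL butterflies, 35 without the 3 males nearer to females and 205 without the 3 ÖL butterflies highest in MCINXTMP_014170. Leaving out ÅL replicate 28 or ÖL replicate 27 gave 44 to 113. Within ÅL 1667 became 845 alone, 58 with the log2 TMM factor, 319 with the count share of the top 10 genes and 1 without the 13 butterflies. Without the 3 males nearer to females 1363 genes were called within ÅL and 7 within ÖL. Within UP 0 became 14 alone and 1 without the 13, and within ÖL 6 became 3 alone. In SA 152 became 290 without a filter and 519 without the 3 low butterflies. The interaction with population fell to 1 with the log2 TMM factor. Without ÅL the differences turned to 0.00071 in MCINXTMP_006522, -0.0076 in MCINXTMP_014585 and -0.053 in MCINXTMP_016615, and without the 13 butterflies to -0.016 in MCINXTMP_014585 and -0.033 in MCINXTMP_016615. The cause was not tested. No paired analysis was possible because the replicate numbers used here follow sample order and tie no butterflies together.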
